A study of Mus musculus and Sus scrofa with 18 samples.

Results

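The genes described here were 8 DNA repair genes linked to expansion of the CAG repeat in somatic cells: Msh3, Msh6, Mlh3, Pms1, Pms2, Fan1, Lig1 and Ogg1. They were chosen by name from what is known of repeat expansion, and their symbols were matched to the Ensembl identifiers of the mouse count table. They are 8 of the 55357 genes in that table, and all 8 passed the filter on low counts, which left 19463 genes for testing. Striatal RNA came from 9 mice in 3 groups of 3. WT mice had received AAV9-Ctrl gRNA in both striata, without CasRx. Untreated mice were heterozygous HD 140Q-KI animals given AAV9-CasRx with AAV9-Ctrl gRNA. Treated mice were HD 140Q-KI animals given AAV9-CasRx with the vectors AAV9-HTT gRNA1+2 plus AAV9-HTT gRNA3+4. All mice were injected at 6 months of age and the tissue was taken 1.5 months later. In the HD 140Q-KI line, exon 1 of mouse Htt is replaced by its human counterpart with a long CAG tract, and full-length mutant huntingtin is made. CasRx, an RNA-cutting Cas13 enzyme, was driven by the CAG promoter, which is active in many cell types, and the gRNAs by U6. Because WT mice had no CasRx, effects of the allele and of the CasRx vector cannot be told apart in any comparison with WT.

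Mismatch repair recognises and removes errors left by DNA replication. Among the MutS proteins, which find the error, MSH3 serves the binding of larger loops, including those that slipped CAG repeats form, and MSH6 that of single mismatches. PMS2, MLH3 and PMS1 belong to the MutL proteins, and the PMS2 and MLH3 complexes cut the DNA strand. On repeat tracts this machinery can lengthen the repeat, also in neurons that no longer divide, and striatal projection neurons are a known site of such lengthening in Huntington disease. FAN1 is a nuclease that restrains expansion, LIG1 seals DNA nicks, and OGG1 removes oxidised guanine. FAN1, MSH3, PMS1, PMS2 and LIG1 lie at loci tied to the age at onset of the disease in people.

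The gRNAs are shown because they were the designed difference between treated and untreated mice, and because a chance match in a repair transcript would bear on how the repair genes read. Each HTT gRNA had 30 bases and was complementary to human HTT exon 1. The Ctrl gRNA had 29 bases. Sequences are given 5′ to 3′ with T for U.
HTT gRNA1: aggccttcatcagcttttccagggtcgcca
HTT gRNA3: gctgaggaagctgaggaggcggcggcggcg
Ctrl gRNA: cggaattcatccagccaccagggtcgccg
HTT gRNA2: ggtcggtgcagcggctcctcagccacagcc
HTT gRNA4: gtgcctgcggcggcggctgaggaagctgag

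The RNA target of each gRNA, its reverse complement, was compared with the protein-coding transcripts of 15447 tested genes in GENCODE M21 (GRCm38). Across the 4 HTT gRNAs, the longest stretch that any of the 8 genes shared without a mismatch had 12 bases, in the coding part of Mlh3. Of the genes searched, 1.52% shared at least 12 bases with the same gRNA. Msh3 followed with 11 bases of the HTT gRNA1 target, a length that 5% of the genes reached. Mouse Htt shared 23 bases with that target, and no other gene searched shared as many. The 3 sites are shown as they stand in the transcripts, with the shared stretch in capitals, to set the member sites beside that of Htt.
Htt site for HTT gRNA1: tggcaACCCTGGAAAAGCTGATGAAGGCtt
Mlh3 site for HTT gRNA1: tcactgtaacaGAAAAGCTGATGttgagaa
Msh3 site for HTT gRNA1: taaagtCCCTGGAAAAGttgaaagaattct
The Htt site was identical to the target at 28 of 30 bases, the Msh3 site at 19 and the Mlh3 site at 15. For HTT gRNA2, 3 and 4 the longest stretch in any of the 8 genes was 9, 10 and 10 bases, and for the Ctrl gRNA it was 10. These are matches of letters, and no cutting was measured at them.

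The libraries covered the 3′ ends of mRNA and held between 27184356 and 32102121 counts. Levels are given as CPM, the counts of a gene relative to the TMM-scaled total of its library. Htt, the targeted gene, was at 189, 191 and 182 CPM in the WT mice, 145, 140 and 150 CPM in the untreated mice and 140, 130 and 136 CPM in the treated mice. Against WT, Htt was lower by the adjusted test in untreated mice (log2 fold change -0.37 ± 0.06 SE, edgeR adjusted p = 0.00656) and in treated mice (-0.46 ± 0.06, edgeR adjusted p = 0.00425), and each call held in 18 of 19 other settings. In treated against untreated mice Htt was not called (log2 fold change -0.10 ± 0.06 SE, edgeR adjusted p = 0.942). That test called 0% of all tested genes in this comparison, so the missing call does not tell whether Htt was knocked down. The unrounded Htt values did not overlap, as for 15.8% of all tested genes there. Counts at the 3′ end do not separate the knock-in transcript from the mouse transcript. By RT-qPCR of the mutant transcript, the study reported lower HTT mRNA in mice treated at this age, and by Western blot less mutant huntingtin. Libraries differed in cell type markers and sex-linked reads. Markers of striatal projection neurons (15 genes, none at 0) summed to between 10431 and 13917 CPM for WT, 3545 and 4215 CPM for untreated, and 5509 and 5588 CPM for treated mice, and all 15 were lower in untreated than in WT mice at an adjusted p under 0.05. Pan-neuronal markers (8 genes) summed to 4468 to 5737 CPM for WT and 5662 to 6658 CPM for untreated mice. Treated mice held 5097 to 5424 CPM. Of these genes, 5 were higher and 3 lower in untreated than in WT mice, with 2 called, both higher. In bulk tissue, fewer cells of a type and less RNA per cell cannot be told apart. WT replicate 1 had the lowest projection neuron sum of the WT mice. The sum of 12 interferon response genes was 41.6 to 43.2 CPM for WT, 153, 240 and 886 CPM for untreated and 130, 170 and 625 CPM for treated mice. All 12 were higher than in WT in both HD groups, with 10 called in untreated and 2 in treated mice. Choroid plexus markers (8 genes, none at 0) summed to 66.2, 3787 and 1225 CPM for WT, 188, 48.9 and 36.2 CPM for untreated and 243, 40.2 and 1284 CPM for treated mice, and all 8 were lower than in WT in both HD groups, with 1 called in untreated and 0 in treated mice. WT replicate 2 thus had the highest choroid plexus sum of the 9 mice. Microglia markers (12 genes, none at 0) summed to 396 to 444 CPM for WT, 529 to 1388 CPM for untreated and 639 to 893 CPM for treated mice, all 12 higher than in WT and 1 called in each HD group. B cell and plasma cell markers (8 genes, none at 0) summed to 13.8 to 40.4 CPM for WT, 98.9 to 567 CPM for untreated and 384 to 740 CPM for treated mice, with 4 and 5 of 6 tested genes called higher. In untreated against WT mice, 14 tested T cell and cytotoxic lymphocyte genes gave 6 called higher and 1 lower. In treated against WT mice they gave 0 higher and 1 lower. Oligodendrocyte markers (8 genes) summed to 9500 to 10386 CPM for WT, 7493 to 8114 for untreated and 7876 to 11816 for treated mice. Of these, 1 was called in untreated and 0 in treated mice. Astrocyte markers gave 0 and 1 called of 8, and endothelial markers 2 and 2 of 7. The part of these cell types in the values of the repair genes was not tested. Counts on 4 Y-linked genes were present in the 3 WT mice and untreated replicate 1 (3435 to 5005 counts) and were 0 in the other 5 mice. Sex and group were therefore nearly inseparable in any comparison with WT. A fit with the presence or absence of Y-linked counts as a covariate separates them by untreated replicate 1 alone.

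None of the 8 repair genes was called in any of the 3 comparisons. With the quasi-likelihood test of edgeR, adjusted over all 19463 genes by the Benjamini-Hochberg method, 0 of 8 passed an adjusted p of 0.05 in untreated against WT mice, where 10.7% of all tested genes did. In treated against WT mice it was 0 of 8, against 3.69% of all tested genes. In treated against untreated mice it was 0 of 8, against 0% of all tested genes, with 1071 genes at an unadjusted P under 0.05. The members also gave 0 of 8 in each comparison at an unadjusted P under 0.05 (background 28.6%, 21.4% and 5.5%), 0 of 8 at such a P with at least a 2-fold change (background 8.16%, 5.22% and 0.771%), 0 of 8 by DESeq2 (17.8%, 9.998% and 0.247% of all tested genes) and 0 of 8 by edgeR's exact test (14.6%, 7.46% and 0.0925%). With 8 genes and such shares, a count of 0 does not set the members apart from the other genes.

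The intervals say more than the counts. The smallest adjusted p of a member was 0.287 in untreated against WT, 0.297 in treated against WT and 0.995 in treated against untreated mice, all by edgeR. The 95% intervals of the 8 genes ran from -26.8% to 67.0% in untreated against WT mice, from -26.9% to 58.3% in treated against WT mice, and from -30.4% to 40.0% in treated against untreated mice. A halving or doubling of any of the 8 transcripts lay outside these intervals, while smaller changes lay inside them. The median absolute log2 fold change of the members was 0.16 in untreated against WT mice, beside 0.23 over all tested genes. It was 0.14 beside 0.20 in treated against WT mice, and 0.08 beside 0.12 in treated against untreated mice. The summed level of the 8 genes was 108 to 117 CPM in WT, 106 to 120 in untreated and 109 to 120 in treated mice, so the ranges of the 3 groups lay on top of each other.

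**Figure D1:**
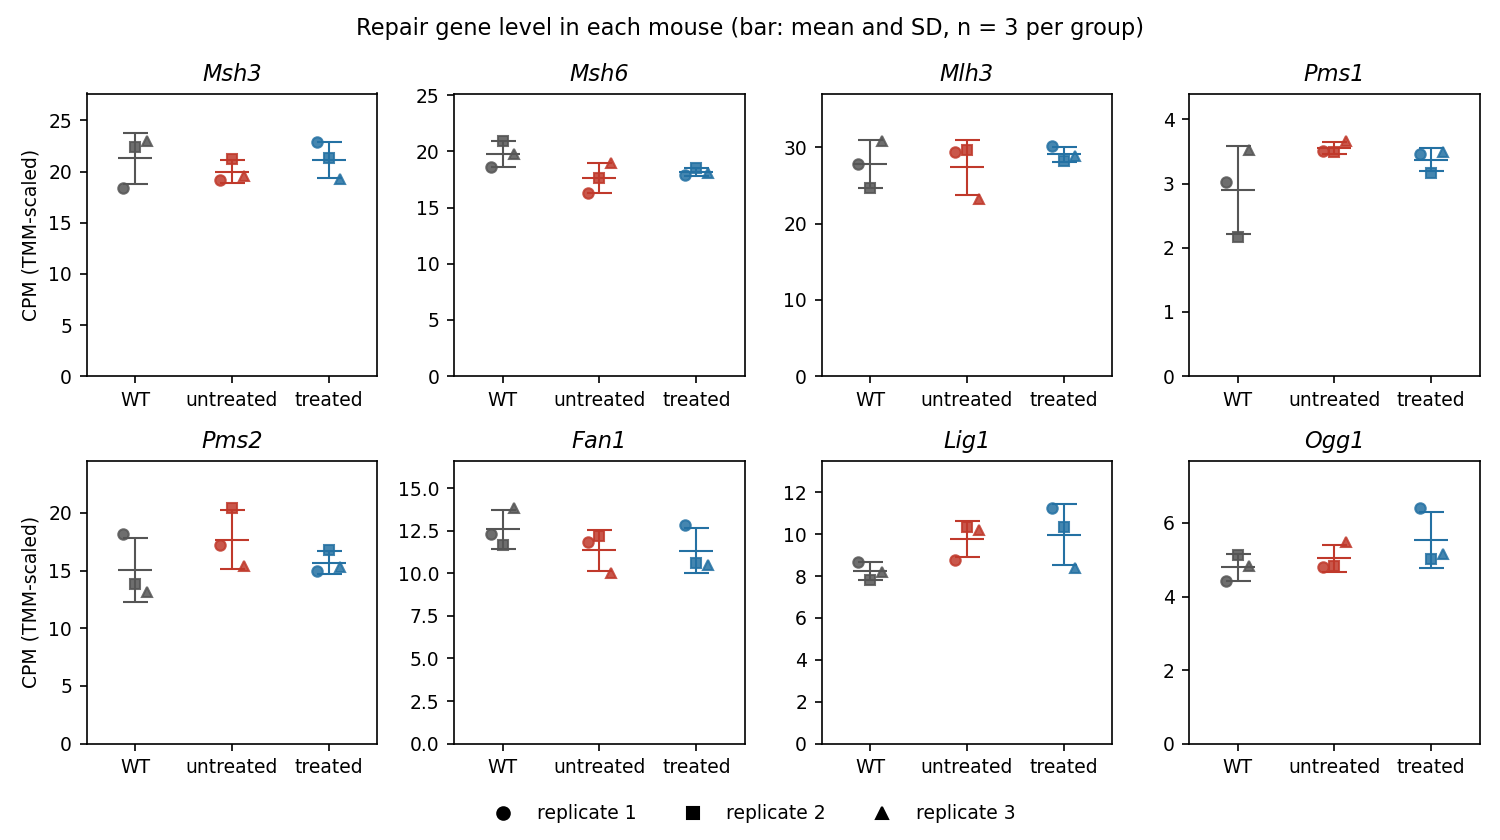
Level of each of the 8 repair genes in each mouse, in TMM-scaled CPM (y axis, starting at 0), by group (x axis). Symbols mark replicates 1, 2 and 3, horizontal bars the mean and whiskers the SD (n = 3). In 21 of the 24 pairs of groups the mice of the 2 groups overlap.

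Msh3 (ENSMUSG00000014850, chromosome 13) encodes the loop-binding MutS subunit on which CAG expansion depends in mouse models. Its level was 18.4, 22.4 and 23.0 CPM in the WT mice, 19.2, 21.3 and 19.5 CPM in the untreated mice and 22.9, 21.3 and 19.3 CPM in the treated mice. The 3 groups overlapped, and the lowest value and the highest value were both from WT mice. The group means were 21.3 ± 2.52 CPM for WT, 20.01 ± 1.10 CPM for untreated and 21.2 ± 1.78 CPM for treated mice (SD, n = 3). Treated mice lay -0.58% from WT, with a 95% interval from -16.8% to 18.8%, and untreated mice -6.02%, with an interval from -21.4% to 12.4%. Against untreated mice, treated mice had a log2 fold change of 0.08 ± 0.11 (SE; edgeR adjusted p = 0.995). Msh3 had 487 to 746 counts per library, and its intervals were among the narrower ones of the 8 genes.

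Msh6 (ENSMUSG00000005370, chromosome 17) encodes the MutS subunit for single mismatches. The WT mice held 18.6, 21.0 and 19.7 CPM, the untreated mice 16.3, 17.6 and 18.99 CPM and the treated mice 17.9, 18.5 and 18.1 CPM. All 3 treated mice were below the lowest WT mouse, whereas untreated replicate 3 lay within the WT range. Non-overlap of this kind was found for 28.6% of all tested genes in treated against WT mice, and Msh6 was the only 1 of the 8 members with it. The log2 fold change was -0.12 ± 0.10 (SE; edgeR adjusted p = 0.505) in treated and -0.17 ± 0.10 (edgeR adjusted p = 0.287) in untreated against WT mice. The interval of the latter ran from -23.1% to 3.47%. Its within-group SD, 0.08 on the log2 CPM scale, was the lowest of the 8 genes.

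The balance of the MutS subunits was compared as the log2 ratio of Msh3 to Msh6 counts in each mouse. It was -0.02, 0.10 and 0.22 in WT, 0.24, 0.27 and 0.04 in the untreated group and 0.35, 0.20 and 0.10 in the treated group. The groups overlapped, with means of 0.10 ± 0.12, 0.18 ± 0.12 and 0.22 ± 0.13 (SD, n = 3). A two-sided exact permutation test gave p = 0.5 for untreated against WT, p = 0.5 for treated against WT and p = 0.8 for treated against untreated mice. With 3 mice against 3, the smallest p this test can give is 0.1.

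Mlh3 (ENSMUSG00000021245, chromosome 12) encodes the MutL subunit whose endonuclease activity drives expansion in mouse models. The WT mice held 27.8, 24.6 and 30.9 CPM, the untreated mice 29.3, 29.6 and 23.2 CPM and the treated mice 30.2, 28.2 and 28.9 CPM. Untreated replicate 3 was the lowest of the 9 mice and WT replicate 3 the highest, so the treated mice, at 29.1 ± 0.99 CPM (SD, n = 3), lay inside the range of the WT mice. Untreated mice lay -1.36% from WT (95% interval -18.2% to 18.97%), and treated mice 6.22% from untreated mice (interval -11.9% to 28.1%). The latter interval is also the measure of Mlh3 beside its 12-base match to HTT gRNA1.

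Pms1 (ENSMUSG00000026098, chromosome 1), another MutL subunit, had the fewest counts of the 8 genes, 59 to 113 per library, and the widest intervals. Its level was 3.02, 2.17 and 3.52 CPM in WT, 3.51, 3.49 and 3.67 CPM in untreated and 3.46, 3.16 and 3.49 CPM in treated mice. WT replicate 2 was the lowest mouse, and the within-group SD of Pms1, 0.21 on the log2 CPM scale, was the highest of the 8 genes. Untreated mice had the largest member difference from WT, 0.29 ± 0.20 (SE; log2 fold change, edgeR adjusted p = 0.374), with an interval from -10.3% to 67.0%. Without WT replicate 2 it was 0.12. Treated against WT mice gave 0.21 ± 0.20 (edgeR adjusted p = 0.582). In treated against untreated mice, Pms1 was the only 1 of the 8 genes without overlap, a pattern that 15.8% of all tested genes had there. The gap was narrow: the highest treated mouse was at 3.489 CPM and the lowest untreated mouse at 3.493 CPM, and the log2 fold change was -0.08 ± 0.20 (SE; edgeR adjusted p = 0.995).

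Pms2 (ENSMUSG00000079109, chromosome 5) encodes the endonuclease subunit of the main MutL complex of mismatch repair. The WT mice held 18.2, 13.8 and 13.1 CPM, the untreated mice 17.2, 20.4 and 15.4 CPM and the treated mice 14.98, 16.8 and 15.3 CPM. WT replicate 1 stood above the other WT mice and above untreated replicates 1 and 3, so the groups overlapped. The log2 fold change was 0.23 ± 0.15 (SE; edgeR adjusted p = 0.344) in untreated against WT mice and -0.17 ± 0.15 (edgeR adjusted p = 0.995) in treated against untreated mice. Treated mice lay 4.30% from WT, with an interval from -17.6% to 32.03%. Leaving out single mice, the untreated against WT difference of Pms2 ran from 0.11 (without untreated replicate 2) to 0.38. The upper end came without WT replicate 1 (edgeR unadjusted P = 0.0277, adjusted p = 0.1201). With untreated replicate 3 also left out, a setting added after seeing the data, it was 0.48 (edgeR unadjusted P = 0.00847, adjusted p = 0.0662), the smallest P of any member under any setting, and still not called.

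The log2 ratio of Mlh3 to Pms2 counts was 0.61, 0.84 and 1.23 in WT, 0.77, 0.54 and 0.59 in the untreated group and 1.01, 0.75 and 0.92 in the treated group. The means were 0.89 ± 0.32, 0.63 ± 0.12 and 0.89 ± 0.13 (SD, n = 3). Untreated mice had the lowest mean, but their range overlapped those of both other groups. The exact permutation test, two-sided, gave p = 0.2 for untreated against WT, p = 1 for treated against WT and p = 0.2 for treated against untreated mice.

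Fan1 (ENSMUSG00000033458, chromosome 7) encodes the nuclease that restrains CAG expansion. Its level was 12.3, 11.6 and 13.8 CPM in the WT mice, 11.9, 12.2 and 9.99 CPM in the untreated mice and 12.8, 10.6 and 10.5 CPM in the treated mice. Both HD groups had a mean of 11.3 CPM against 12.6 CPM in WT, and each overlapped WT. Untreated mice lay -9.83% from WT (95% interval -26.8% to 11.0%) and treated mice -10.0% (interval -26.9% to 10.7%). Between treated and untreated mice the log2 fold change was -0.00 ± 0.13 (SE; edgeR adjusted p = 1.00), with an interval from -18.97% to 22.8%.

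Lig1 (ENSMUSG00000056394, chromosome 7) encodes the DNA ligase of replication and long-patch repair. The WT mice held 8.69, 7.82 and 8.21 CPM, the untreated mice 8.77, 10.3 and 10.2 CPM and the treated mice 11.2, 10.3 and 8.37 CPM. All 3 untreated mice were above the highest WT mouse, by a margin of 8.77 against 8.69 CPM, while treated replicate 3 lay inside the WT range. Lig1 was the only 1 of the 8 genes without overlap in untreated against WT mice, where 30.1% of all tested genes had none. The log2 fold change from WT was 0.25 ± 0.14 (SE; edgeR adjusted p = 0.288) in untreated and 0.28 ± 0.14 (edgeR adjusted p = 0.297) in treated mice. These gave intervals from -4.98% to 48.0% and from -2.84% to 51.2%. Without treated replicate 3, the treated against WT difference was 0.39 (edgeR unadjusted P = 0.0211, adjusted p = 0.226).

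Ogg1 (ENSMUSG00000030271, chromosome 6) encodes the glycosylase for oxidised guanine, whose loss slows expansion in mouse models. The WT mice held 4.42, 5.14 and 4.82 CPM, the untreated mice 4.81, 4.84 and 5.47 CPM and the treated mice 6.40, 5.01 and 5.17 CPM. Treated replicate 1 was the highest of the 9 mice, and the other treated mice lay among the untreated ones. The group means were 4.79 ± 0.36 (SD, n = 3), 5.04 ± 0.37 and 5.53 ± 0.76 CPM. Treated mice had a log2 fold change of 0.21 ± 0.16 (SE; edgeR adjusted p = 0.491) from WT, with an interval from -9.64% to 47.2%, and untreated mice 0.07 ± 0.16 (edgeR adjusted p = 0.810). Without treated replicate 1, the treated against WT difference was 0.09.

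**Figure D2:**
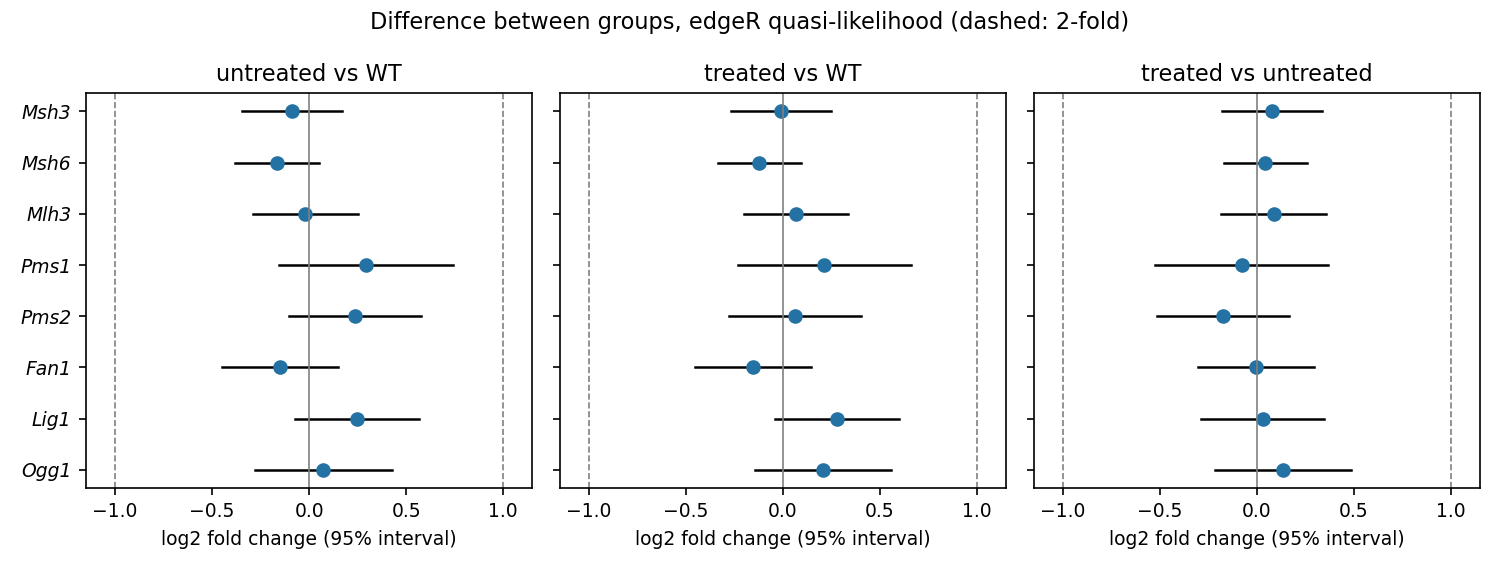
Log2 fold change (x axis) of each repair gene (y axis) with its 95% interval in the 3 comparisons, from edgeR's quasi-likelihood fit of all 9 mice. Each of the 24 intervals holds 0, and none reaches the dashed lines at a 2-fold change.

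Most members varied less between mice of a group than the typical gene of their level, but Pms1 and Pms2 did not. The within-group SD of the members on the log2 CPM scale ran from 0.08 to 0.21 with a median of 0.15. The median of the 6388 tested genes within the members' range of mean CPM was 0.192, and Pms1 (0.208) and Pms2 (0.194) lay above it. From the lowest to the highest of the 9 mice, the level differed 1.25-fold in Msh3, 1.29-fold in Msh6 and 1.33-fold in Mlh3. It differed 1.38-fold in Fan1, 1.44-fold in Lig1, 1.45-fold in Ogg1, 1.56-fold in Pms2 and 1.69-fold in Pms1. The 9 mice differed in library depth, group and Y-linked reads. Across them, the correlation of log2 CPM between members ran from -0.64 (Msh6 and Pms1) to 0.65 (Mlh3 and Fan1). The 8 genes thus did not rise and fall as a unit.

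Of 12405 tested genes with at least 5 CPM on average, those whose log2 CPM most resembled a member over the 9 mice are given as a description. Msh3 was closest to Tob1 (Pearson r = 0.93), Colec12 (0.92) and Zfp512b (0.90), and Msh6 to Ampd3 (0.98), Zdhhc18 (0.98) and Slc38a10 (0.97). For Mlh3 they were Cisd2 (0.98), Zcchc18 (0.95) and Zfp964 (0.94), and for Pms2 Slc43a2 (0.93), Atpif1 (0.93) and Cntnap4 (0.90). Pms1, with 12406 candidates, was closest to Thoc2 (0.99), Mib1 (0.99) and Celf4 (0.99). Fan1 resembled Mtmr7 (0.94), Adss (0.94) and Tbck (0.92), Lig1 resembled Rwdd3 (0.91), Zfp704 (0.90) and Upp2 (0.90), and Ogg1 resembled Yy1 (0.90), Chrac1 (0.88) and Lyrm2 (0.82). No member was among the 3 closest genes of another member, and among so many candidates and 9 mice high values of r are easily reached.

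The other genes of these pathways were read from 4 lists of repair and modifier genes and 1 list of cell cycle and replication genes, of which 74 of 76 genes could be tested. Msh4 (0 to 3 counts per library) and Neil3 (5 to 13) could not. Together the lists gave 5 called genes in untreated against WT mice, 4 lower and 1 higher, all of them in the 4 repair and modifier lists, where they were 8.93% of 56 tested genes beside 10.7% of all tested genes. Over all 74 genes the share was 6.76%, and DESeq2 called 8 of the 74, beside 17.8% of all tested genes. In treated against WT mice 0 of 74 were called by edgeR's quasi-likelihood test, with 6 at an unadjusted P under 0.05 and 2 called by DESeq2 (9.998% of all tested genes). In treated against untreated mice 0 of 74 were called, beside 0% of all tested genes. There 2 had an unadjusted P under 0.05, beside 5.5%, and DESeq2 called 0, beside 0.247%. The exact test of edgeR called 4, 0 and 0 in the 3 comparisons, beside 14.6%, 7.46% and 0.0925% of all tested genes.

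The tested mismatch repair partners were Msh5, Exo1, Pcna and subunits of Rfc, Rpa and Pold, most of which also serve DNA replication. They gave 0 of 15 called genes in untreated against WT mice, beside 10.7% of all tested genes. At an unadjusted P under 0.05 there was 1 of them, beside 28.6%, and the median log2 fold change was 0.06. DESeq2 called 1 of them, beside 17.8% of all tested genes, and the exact test 0. Rfc5, a subunit of the clamp loader, had the smallest P, at 13.6, 17.4 and 15.1 CPM in WT, 11.2, 11.8 and 11.8 CPM in untreated and 12.3, 12.5 and 10.6 CPM in treated mice. Both HD groups lay below all WT mice, with log2 fold changes of -0.40 ± 0.12 (SE, edgeR adjusted p = 0.0650) and -0.38 ± 0.12 (edgeR adjusted p = 0.113). Non-overlap with WT was found for 30.1% of all tested genes in untreated and 28.6% in treated mice.

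Base excision and single-strand break repair is the pathway of OGG1. Of its 18 tested genes, 1 was called in untreated against WT mice, beside 10.7% of all tested genes. The called gene was Lig3, the ligase of single-strand break repair. Its level fell from 34.9, 44.5 and 36.1 CPM in WT to 27.7, 27.6 and 29.7 CPM in untreated mice. These groups did not overlap, as for 30.1% of all tested genes. Treated mice held 28.1, 32.5 and 34.6 CPM, all below the lowest WT mouse. Non-overlap of treated with WT mice was found for 28.6% of all tested genes. The log2 fold change was -0.44 ± 0.12 (SE; edgeR adjusted p = 0.0431) in untreated and -0.28 ± 0.12 (edgeR adjusted p = 0.208) in treated mice against WT. The change of the ligase Lig1 in the same comparison had the opposite sign, 0.25, and was not called.

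Fanconi anaemia genes and structure-specific nucleases act on the same lesions as FAN1. Of 15 tested, 3 were called in untreated against WT mice, all lower, beside 10.7% of all tested genes. In 10 of the 19 other settings the count was 0. Ercc1 and Ercc4 encode the partners of a nuclease that cuts at DNA junctions. Ercc1 fell from 26.2, 25.8 and 22.2 CPM in WT to 19.8, 20.3 and 18.3 CPM in untreated mice (log2 fold change -0.35 ± 0.10 SE, edgeR adjusted p = 0.0497). Ercc4 fell from 31.2, 38.9 and 36.4 CPM to 27.8, 28.0 and 25.4 CPM (-0.39 ± 0.11, edgeR adjusted p = 0.0459). Fancb, a subunit of the Fanconi core complex, fell from 4.72, 6.09 and 6.35 CPM to 2.74, 2.85 and 1.77 CPM (-1.22 ± 0.33, edgeR adjusted p = 0.0462). In none of these genes did untreated mice overlap WT mice, as for 30.1% of all tested genes. The genes were named because they were called in this comparison, so the non-overlap adds no support. Treated mice were at 19.3 ± 0.18 CPM (SD, n = 3) for Ercc1, 31.7 ± 2.55 for Ercc4 and 2.80 ± 1.17 for Fancb. Against WT this gave log2 fold changes of -0.36 ± 0.10 (SE; edgeR adjusted p = 0.0753) for Ercc1, -0.17 ± 0.11 (edgeR adjusted p = 0.404) for Ercc4 and -1.03 ± 0.33 (edgeR adjusted p = 0.113) for Fancb, none of them called. Over the whole list, 8 genes were higher and 7 lower, with a median log2 fold change of 0.00.

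Of 8 other genes reported to modify onset or repeat length in Huntington disease, 1 was called in untreated against WT mice. The share over all tested genes was 10.7%. Ccdc82 rose from 24.1, 20.6 and 27.2 CPM in WT to 32.7, 29.9 and 31.4 CPM in untreated mice (log2 fold change 0.39 ± 0.11 SE, edgeR adjusted p = 0.0487). These groups did not overlap, as for 30.1% of all tested genes. Ccdc82 was not called in treated against WT mice, where the log2 fold change was 0.25 ± 0.11 (SE, edgeR adjusted p = 0.214). For the 5 called list genes, treated against untreated mice gave no call (smallest edgeR adjusted p = 0.889). The share over all tested genes was 0% there, so this does not tell whether the genes returned towards WT. In untreated against WT mice the adjusted p of the 5 calls lay between 0.0431 and 0.0497, close to the threshold. Ccdc82 kept its call in 5 of 19 other settings, Lig3 and Fancb in 7 each, Ercc4 in 6 and Ercc1 in 3, with the sign unchanged throughout. None of the 5 calls held without WT replicate 2 (edgeR adjusted p from 0.104 to 0.130). In that setting 4.57% of all tested genes were called, beside 10.7% with all mice. That mouse had the highest choroid plexus sum and was also the highest WT mouse for Lig3, Ercc4 and Rfc5, the last of which was not called. It was neither the highest nor the lowest WT mouse for Ercc1 and Fancb, and it was the lowest for Ccdc82. Without it, the untreated against WT differences were -0.32 for Lig3 (edgeR adjusted p = 0.109), -0.32 for Ercc4 (edgeR adjusted p = 0.130) and -0.30 for Rfc5 (edgeR adjusted p = 0.178), and the part of choroid plexus RNA in these values was not tested. With the presence of Y-linked counts as a covariate, 0 of the 74 genes were called, beside 1.29% of all tested genes.

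Since several members also serve DNA replication, 18 cell cycle and replication genes were read beside them. In untreated against WT mice 0 of 18 were called by edgeR's quasi-likelihood test, by DESeq2 and by the exact test. Also, 0 had an unadjusted P under 0.05. Over all tested genes the shares were 10.7%, 17.8% and 14.6% by these tests and 28.6% at that P. Birc5, a mitotic regulator, had the smallest P, at 0.83, 0.73 and 0.60 CPM in WT, 0.98, 0.84 and 1.94 CPM in untreated and 0.74, 0.79 and 0.78 CPM in treated mice. Its higher mean in untreated mice came with 57 counts in replicate 3 against 28 and 25 in the others (log2 fold change 0.80 ± 0.36 SE, edgeR adjusted p = 0.175).

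**Figure D3:**
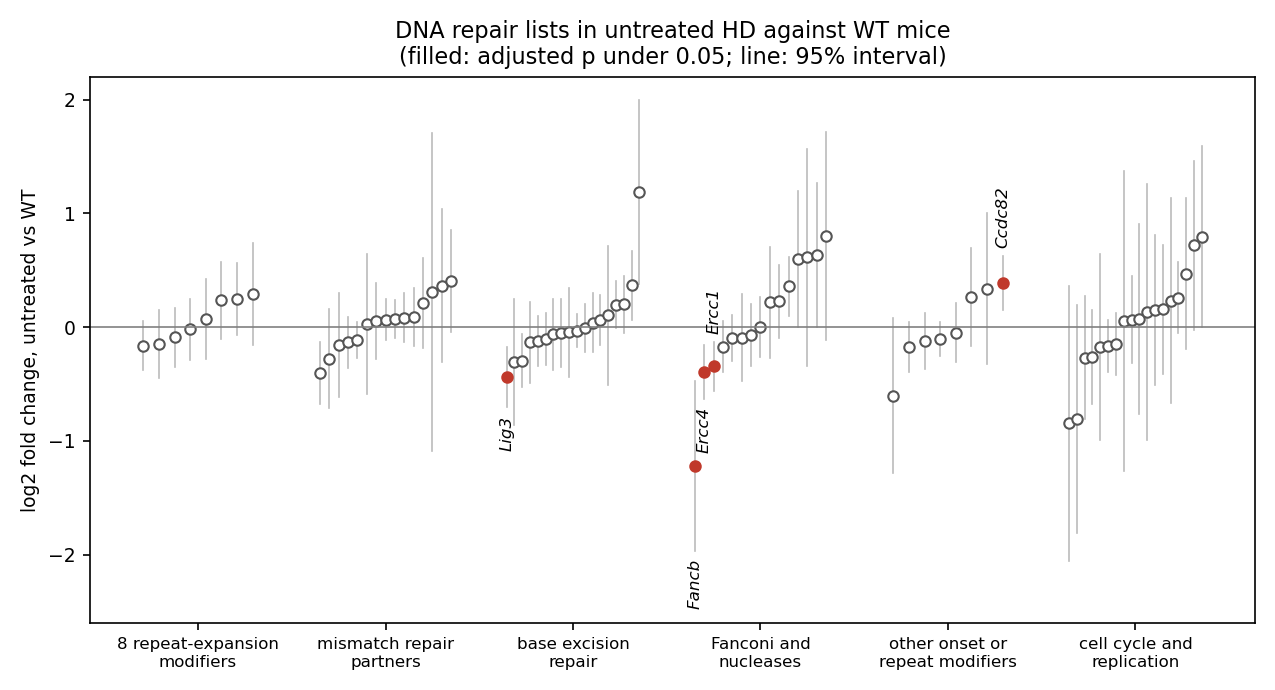
Log2 fold change of untreated against WT mice (y axis) for the 8 members and the 5 lists of other repair, modifier and cell cycle genes (x axis), each gene with its 95% interval and sorted within its list. Filled points mark the 5 genes with an adjusted p under 0.05, all of them outside the 8 members and 4 of them below 0.

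Reads of overlapping genes can be hard to assign, and the sources used here do not say whether the counting used strand. Ogg1 shares 945 bases at its 3′ end with Camk1, a calcium-dependent kinase gene on the opposite strand, and the libraries cover 3′ ends. Camk1 rose from 52.3, 36.7 and 30.6 CPM in WT to 66.4, 63.5 and 75.8 CPM in untreated mice, where the log2 fold change was 0.78 ± 0.17 (SE; edgeR adjusted p = 0.0226), while Ogg1 moved by 0.07 ± 0.16. Pms2 shares 934 bases with Rsph10b on the same strand, for which treated against untreated mice gave -0.44 ± 0.18 (SE; edgeR adjusted p = 0.889) beside -0.17 for Pms2. It has longer overlaps with Gm42421 (5794 bases, same strand) and Gm17135 (11392 bases, opposite strand), which had at most 7 and 2 counts in any library. The overlap of Lig1 with Zswim9 (1439 bases) lies at the 5′ ends, and that of Msh6 with Fbxo11 at the 3′ ends has 34 bases. Acyp1, Ormdl1, Aimp2, Gm20457, Mphosph10 and Brpf1 lie within 5 kb of a member. Of the neighbours tested, Camk1 was the only 1 called, in untreated against WT mice. A further 9 overlapping or nearby genes, Gm42421 and Gm17135 among them, had at most 7 counts in any library and were not tested. The part of shared reads in the values of Ogg1 and Pms2 was not tested.

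**Figure D4:**
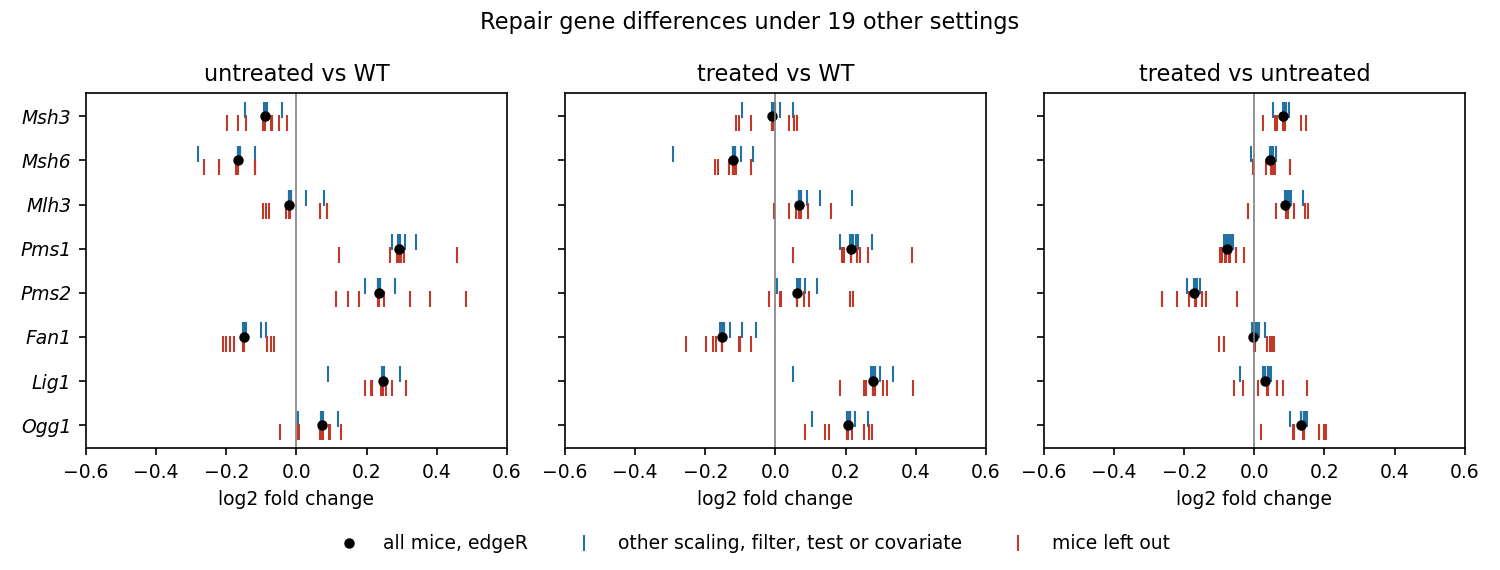
Log2 fold change (x axis) of each repair gene (y axis) in the 3 comparisons with all mice (black points), under other scalings, filters, tests or covariates (blue ticks) and with mice left out (red ticks). Over the 19 other settings, 423 of 456 values kept the sign of the black point and 33 did not, and none was called.

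The sign of the smaller member differences depended on the setting, as the plot of settings shows. The differences of Msh6 and Fan1 from WT stayed below 0, and those of Pms1 and Lig1 above 0, in both HD groups under all 19 other settings. Msh6 ran from -0.28 to -0.12 in untreated and from -0.29 to -0.06 in treated mice, Pms1 from 0.12 to 0.46 and from 0.05 to 0.39, and Lig1 from 0.09 to 0.31 and from 0.05 to 0.39. The lower ends of Lig1 came with the presence of Y-linked counts as a covariate and so rest on untreated replicate 1. The 2 comparisons share the WT mice. With untreated replicate 1 left out, the 5 mice of the treated and untreated groups all lacked Y-linked counts, and the 8 members then differed by -0.19 (Pms2) to 0.14 (Mlh3), with a smallest unadjusted P of 0.317 by edgeR.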

How the data were processed

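RNA from the striatum of 9 mice was sequenced as oligo-dT primed 3′ mRNA libraries. The authors deposited raw counts, whole numbers of reads per Ensembl gene without normalization. The study's methods name STAR, whereas the submitters' processing notes list Trimmomatic 0.39, FastQC 0.11.9, HISAT2 2.2.1 and featureCounts 2.0.1 from Subread. The mouse build, the use of strand and the use of molecular identifiers are not given in the sources used here, so coordinates are not printed and PCR copies may add to the counts. Symbols came from GENCODE M21, which holds 94.1% of the identifiers and 99.8% of the counts. Pig counts were not used. A few genes of the lists and neighbours are not reported here and were left out of the list counts.

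The 8 members, the lists and the tests were chosen with earlier results of these data known. Groups came from the sample labels, and each library was 1 mouse. Counts were filtered with filterByExpr, scaled by TMM and fitted together over all 9 libraries, by group alone, with edgeR 4.0.16 (glmQLFit, glmQLFTest) in R 4.3.3, with 6 residual degrees of freedom. A gene was called at a Benjamini-Hochberg adjusted p under 0.05. SEs were obtained as the size of the log2 fold change over √F, and intervals use the same SE. Log2 CPM had a prior count of 2. The named genes were all members, list genes called in any comparison or otherwise the 1 with the smallest P in untreated against WT mice, genes overlapping or within 5 kb of a member, the 3 genes most alike each member, and Htt. Steps were tested on simulated data. Alternatives were other scalings, filters and tests (DESeq2 1.42.0, edgeR's exact test) and a fit restricted to the groups compared. Others were replicate number as a block, presence or absence of Y-linked counts as covariate, and each mouse left out. Leaving out WT replicate 1 and untreated replicate 3 together was added after seeing the data. Plots used Python 3.11.15 and matplotlib 3.10.9.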

Additional observations from a re-analysis of the deposited data

How the results depend on the processing

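In each of the 19 settings besides the reported one, 0 of the 8 repair genes were called in each comparison, while calls over all genes ran from 251 to 3473 (reported 2080) in untreated against WT mice, from 3 to 1946 (reported 718) in treated against WT mice and from 0 to 48 in treated against untreated mice. The low ends of the former 2 came with the presence of Y-linked counts as covariate, and the high ends with DESeq2. The covariate fit rests on untreated replicate 1 alone to separate sex from group. With DESeq2 the counts were 1773 higher and 1700 lower in untreated against WT mice, beside 892 and 1188, and without TMM they were 1147 and 922. The exact test called 2832, 1452 and 18, no expression filter 1096, 365 and 0, and fitting the compared groups alone 726, 1044 and 0. Leaving out a mouse gave 912 to 2584, 136 to 1380 and 0 to 1. Leaving out WT replicate 1 and untreated replicate 3 gave 2069, 1713 and 0. The list counts in untreated against WT mice ran from 0 to 4 for the Fanconi and nuclease list (reported 3) and 0 to 2 for base excision repair (1). They ran from 0 to 1 for the other modifiers (1), 0 to 1 for the mismatch repair partners (0) and stayed at 0 for the cell cycle list.

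Log2 fold changes of members that changed sign, none of them called, were as follows. Without TMM, untreated against WT Mlh3 was 0.028, treated against WT Msh3 0.050 and treated against untreated Fan1 0.0071. With the presence of Y-linked counts as covariate, untreated against WT Mlh3 was 0.078. In treated against untreated mice Msh6 was then -0.011, Fan1 0.029 and Lig1 -0.040. With at least 10 counts in every library, treated against WT Msh3 was 0.013 and treated against untreated Fan1 0.014. Fan1 in treated against untreated mice was also 0.0020 with median-ratio factors, 0.0026 with DESeq2, 0.0045 without a filter and 0.0025 with only the compared groups. With WT replicate 1 and untreated replicate 3 left out, untreated against WT Mlh3 was 0.086 and Ogg1 -0.046, and treated against untreated Mlh3 -0.018. With each mouse left out in turn, treated against untreated mice gave -0.10 to 0.057 for Fan1, -0.058 to 0.15 for Lig1, -0.018 to 0.15 for Mlh3 and -0.0033 to 0.10 for Msh6. Treated against WT mice gave -0.0028 to 0.16 for Mlh3, -0.11 to 0.060 for Msh3 and -0.019 to 0.21 for Pms2, and untreated against WT mice -0.097 to 0.086 for Mlh3. The cause of these changes was not tested.

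Replicate numbers were shared between groups, but the mice were different animals and the deviations of same-numbered mice correlated at -0.08 to 0.24, so the numbers were not taken to pair them. With a replicate block, 2018, 778 and 0 genes were called in the 3 comparisons, and 0 of the 8 members. Pms1 had 59 to 113 counts per library and Ogg1 117 to 209.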
